A study of Saccharomyces cerevisiae with 16 samples.

Results

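Ribosome footprints of budding yeast lacking CAN1 were compared with those of yeast lacking TOR1, using every footprint library labelled with either deletion: 3 can1 and 2 tor1 libraries of the 16 libraries in the series. The difference holds no wild-type library. All strains are labelled as BY4741, a MATa laboratory haploid of Saccharomyces cerevisiae that carries deletions of its own in HIS3, LEU2, MET17 and URA3, and the other strains of the series are wild type and a deletion of RPL22A. Cultures of 500 ml were grown in standard YPD, a rich medium, to an optical density at 600 nm of 0.5, with no further treatment named. Both deletion strains thus share the BY4741 background and the medium, and differ by label in the deleted gene alone; whether each strain is 1 clone is not stated. Cells were broken by cryogrinding, extracts were taken up in buffer with cycloheximide, and footprints (the pieces of mRNA that a ribosome shields from nuclease) were cut with RNase I and purified from the 80S fraction. Poly(A) RNA from aliquots of these lysates gave 2 can1 libraries and 1 tor1 library of mRNA. Nothing in the labels says that replicates were separate cultures, so p-values measure the spread between these samples, which may be technical.

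CAN1 encodes the high-affinity arginine permease of the plasma membrane, through which yeast in rich medium takes up arginine. TOR1 encodes a kinase that can serve as the catalytic subunit of TORC1, the complex that couples growth to nitrogen and amino acid supply, and TOR2 can take its place there. Arginine synthesis in yeast is held down by arginine through the ArgR/Mcm1 repressor and driven up by Gcn4, the activator of amino acid synthesis genes, while CPA1 is in addition controlled at translation by an arginine-responsive peptide encoded in its own leader. Arginine breakdown genes are induced by arginine and repressed by good nitrogen sources.

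The can1 footprint libraries held 8.70, 4.75 and 3.42 (in units of 1e6 reads) and the tor1 libraries 3.36 and 5.81, as recovered from the steps of the deposited RPKM values. Levels below are RPKM (reads per kilobase of listed length per 1e6 reads) after scaling by trimmed means. Replicate 1 of can1 stood apart from its own group. Over 3601 genes the median absolute log2 difference between it and can1 replicates 2 and 3 was 0.197 and 0.217. The same measure between it and tor1 replicates 1 and 2 was 0.121 and 0.124. Replicates 2 and 3 of can1 differed from each other by 0.138, and the tor1 replicates by 0.141. One can1 library was therefore closer to both tor1 libraries than to its own group. Footprint calls that change without it are named below.

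The deleted genes matched the labels. CAN1 (YEL063C, build R64, chrV:31694-33466, minus strand) had 1, 2 and 1 reads in the can1 footprint libraries, and 247 and 420 reads in the tor1 libraries, where its level was 44.6 and 42.9 RPKM. TOR1 (YJR066W, chrX:559416-566828, plus strand) had 2 and 1 reads in the tor1 libraries, and 291, 254 and 172 reads in the can1 libraries, with levels of 4.46, 7.57 and 6.98 RPKM. Both pass the test below, and no fold is given because it would rest on the few reads left. In mRNA, CAN1 had 0 and 3 reads in can1 against 206 in tor1, and TOR1 had 0 reads in tor1 against 332 and 411 in can1. Each gene was thus nearly without reads where it was deleted and well covered in the other strain.

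The genes beside the deletions did not pass the test. NPR2, next to CAN1 and a subunit of a complex that inhibits TORC1, differed by 0.17 ± 0.20 (log2, can1 minus tor1, ± SE; adjusted p = 0.741). AVT2, on the other side of CAN1, differed by 0.08 ± 0.20. ARP3 and YAE1, which flank TOR1, differed by -0.01 ± 0.11 and -0.07 ± 0.27. Of the background markers, LEU2 and URA3 had 0 reads in all 5 libraries and MET17 had 1 read in tor1 replicate 2 and 0 in the others. HIS3, whose BY4741 allele is a partial deletion, differed by -0.16 ± 0.12. The relatives of the deleted genes did not pass either. LYP1, a lysine permease close to ALP1 on chromosome XIV, differed by 0.41 ± 0.21 (adjusted p = 0.529). TOR2 differed by 0.30 ± 0.22 (adjusted p = 0.605). ALP1, a basic amino acid permease, had at most 2 reads in any of the 5 libraries and was not tested.

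Few genes separated the strains beyond the spread between libraries. Of 4900 genes tested, 9 passed an adjusted p of 0.05 (0.184%; limma with Benjamini-Hochberg adjustment over all 4900), with 8 higher in can1 (0.163%) and 1 lower (0.0204%). The 8 included TOR1 itself, 5 enzymes of arginine synthesis (ARG3, ARG1, ARG56, ARG8 and CPA1), and ARO10. The single gene lower in can1 was CAN1. At an unadjusted p under 0.05 there were 472 genes (9.63%), where 245 would be met by chance if no gene differed, 224 of them higher (4.57%) and 248 lower (5.06%) in can1. The median difference over all genes was 0.00, and 2462 of the 4900 were above 0. Without can1 replicate 1, 12 genes passed: the same 9 with ATG41, IGD1 and YKR075C, and 1035 genes had an unadjusted p under 0.05. That count was 276 without can1 replicate 2, 215 without can1 replicate 3, 283 without tor1 replicate 1 and 314 without tor1 replicate 2, so it lay on both sides of the number met by chance.

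**Figure D1:**
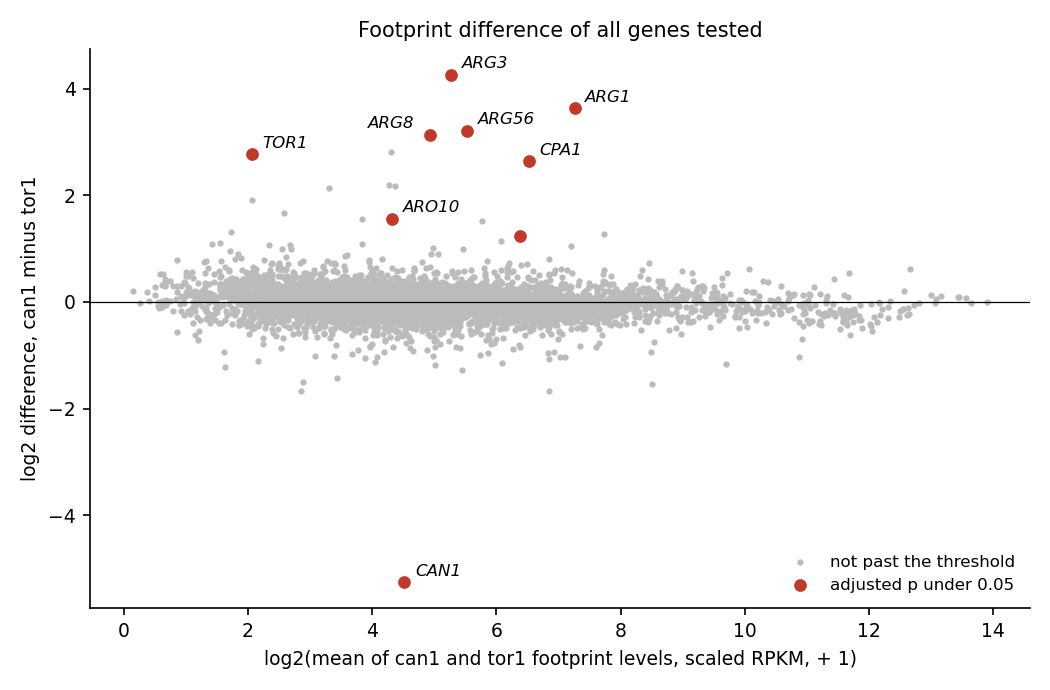
Each point is 1 of the 4900 genes tested, with its mean footprint level in the can1 and tor1 libraries on the horizontal axis (log2 of scaled RPKM + 1) and the fitted log2 difference can1 minus tor1 on the vertical axis. The 9 genes past the threshold are drawn in red, and the fitted values of the deleted genes CAN1 and TOR1 depend on the pseudocount; most other points lie close to 0, and 95% of the genes lie below a difference of 0.43.

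Arginine synthesis held most of the genes that passed. Of the 8 genes described here, all tested, 5 rose in can1 relative to tor1 and none fell, against 0.163% and 0.0204% of all genes. Their median difference was 2.89, against 0.00 over all genes. The summed level of the 8 genes was 702, 790 and 937 RPKM in can1 and 154 and 174 RPKM in tor1. With each of the 5 libraries left out in turn the median stayed between 2.74 and 2.99.

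The acetylated part of the pathway, which makes ornithine in mitochondria, opens with ARG2. ARG2 (acetylglutamate synthase) had 3.86, 3.49 and 3.65 RPKM in can1 and 4.09 and 4.0 in tor1, a difference of -0.11 ± 0.16 (adjusted p = 0.790). It was the lowest of the 8 genes in can1 and the only one below 0. ARG56, which encodes the next pair of enzymes as 1 precursor (acetylglutamate kinase and the reductase that follows), had 62.5, 81.1 and 105 RPKM in can1 and 7.15 and 8.64 in tor1. Its groups lay far apart, with a ratio of means of 10.5 and a log2 difference of 3.21 ± 0.20 (adjusted p = 9.27e-06). ARG8 (acetylornithine aminotransferase) had 50.7, 51.9 and 59.0 RPKM in can1 and 4.12 and 6.56 in tor1. The can1 libraries were close to each other and 10.1-fold above the tor1 mean, a log2 difference of 3.14 ± 0.24 (adjusted p = 4.30e-05). ARG7 (ornithine acetyltransferase) had 63.5, 63.8 and 72.4 RPKM in can1 and 41.1 and 44.3 in tor1. These groups did not overlap either, but the difference of 0.63 ± 0.14 missed the threshold (adjusted p = 0.173).

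CPA1 belongs to the arginine-specific carbamoyl phosphate synthetase, which supplies the carbamoyl group. CPA1 had 124, 170 and 179 RPKM in can1 and 23.9 and 24.2 in tor1. The lowest can1 library was several times the higher tor1 library, and the log2 difference was 2.64 ± 0.17 (adjusted p = 1.15e-05). Its mean level was 158 ± 29.6 RPKM in can1 (SD, n = 3) and 24.1 ± 0.214 RPKM in tor1 (SD, n = 2), a ratio of 6.55.

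The last enzymes of the pathway build arginine from ornithine. ARG3 (ornithine carbamoyltransferase) had 70.2, 67.9 and 79.3 RPKM in can1 and 1.98 and 3.91 in tor1, the latter from 6 and 21 reads. It had the largest ratio of means of the 8 genes, 24.6, and a log2 difference of 4.26 ± 0.32 (adjusted p = 3.61e-05). ARG1 (argininosuccinate synthetase) had 239, 273 and 337 RPKM in can1 and 16.9 and 27.6 in tor1. It was the most highly covered of the 8 in can1, with a ratio of 12.7 and a log2 difference of 3.64 ± 0.27 (adjusted p = 3.47e-05). ARG4 (argininosuccinate lyase) had 88.3, 77.9 and 102 RPKM in can1 and 54.9 and 55.2 in tor1. The groups did not overlap, but the difference of 0.68 ± 0.13 missed the threshold (adjusted p = 0.0998), and it passed in a fit with precision weights on the recovered reads (adjusted p = 0.0362). Relative to wild type, at 57.2, 51.9 and 49.3 RPKM, ARG4 rose in can1 by 0.74 ± 0.11 (adjusted p = 0.0216).

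**Figure D2:**
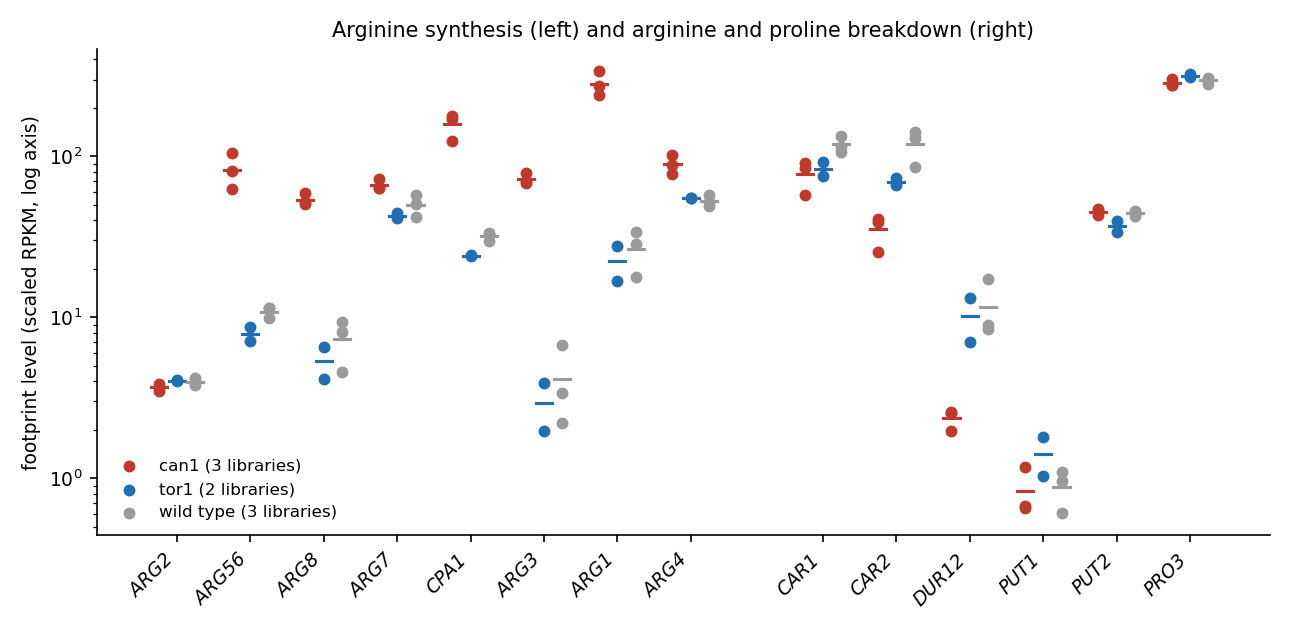
Footprint level of 8 arginine synthesis genes (left) and of each arginine and proline breakdown gene (right) in every can1, tor1 and wild-type library, in scaled RPKM on a log axis; points are libraries and short bars are group means. For ARG56, ARG8, CPA1, ARG3 and ARG1 the can1 points lie far above all tor1 and wild-type points. Of the 3 strains drawn, ARG2 is level in all and DUR12 lies lowest in can1.

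The wild-type libraries lay with those of tor1 for the genes that rose. For ARG3 they had 6.77, 3.38 and 2.20 RPKM, for ARG1 33.9, 28.6 and 17.7, and for ARG56 11.4, 11.3 and 9.87. All of these lie below every can1 library and near the tor1 libraries. The rpl22a libraries lay between wild type and can1, at 22.1 and 17.8 RPKM for ARG3, 86.4 and 74.5 for ARG1, and 53.9 and 46.0 for ARG56. For ARG4 the rpl22a libraries, at 191 and 180 RPKM, lay above every can1 library, and for DUR12, at 1.12 and 1.12, below. ARG3 was 3.94 ± 0.29 above wild type in can1 (adjusted p = 2.54e-05) and -0.32 ± 0.32 from it in tor1 (adjusted p = 0.816). CPA1 was 2.25 ± 0.15 above wild type in can1 (adjusted p = 1.98e-05) and -0.40 ± 0.17 from it in tor1 (adjusted p = 0.668). Over the 8 genes the median was 2.50 for can1 minus wild type and -0.28 for tor1 minus wild type. These contrasts share their wild-type libraries with each other and their deletion libraries with the main comparison, and so add no separate evidence.

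Most of these genes share a short promoter sequence, though the genes themselves were chosen with levels known. The stretch of 300 bases that ends 100 bases before the coding start, so as to leave out most of the leader, was searched on both strands for TGACTC, the core letters bound by Gcn4. It was found before 7 of the 8 arginine synthesis genes (87.5%), before 6 of the 8 genes higher in can1 (75.0%), and before 9.12% of 4804 tested genes with a window. Both sets hold ARG1, ARG3, ARG56, ARG8 and CPA1, so their counts are not separate. ARG2, ARO10 and TOR1 had none in that window. ARG4 and ARG7, which missed the threshold, each had 1 match, and so did CAN1. The windows shown were chosen by footprint difference: ARG1, ARG3 and ARG56 are among the genes with the clearest differences, and ARG2 is the one without any. With TGACTC or its complement GAGTCA in capitals, they are read 5′ to 3′ on the coding strand from the RefSeq copy of the R64 genome. They lie at chrXV:218811-219110 (ARG1), chrX:268399-268698 (ARG3), chrV:295010-295309 (ARG56) and chrX:305732-306031 (ARG2), all on the plus strand.
ARG1: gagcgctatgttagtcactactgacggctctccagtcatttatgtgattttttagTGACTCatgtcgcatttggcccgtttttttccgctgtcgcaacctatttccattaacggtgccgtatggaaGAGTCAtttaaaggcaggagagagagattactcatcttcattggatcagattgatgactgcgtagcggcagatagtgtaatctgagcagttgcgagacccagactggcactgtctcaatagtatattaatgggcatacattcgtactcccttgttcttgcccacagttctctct
ARG3: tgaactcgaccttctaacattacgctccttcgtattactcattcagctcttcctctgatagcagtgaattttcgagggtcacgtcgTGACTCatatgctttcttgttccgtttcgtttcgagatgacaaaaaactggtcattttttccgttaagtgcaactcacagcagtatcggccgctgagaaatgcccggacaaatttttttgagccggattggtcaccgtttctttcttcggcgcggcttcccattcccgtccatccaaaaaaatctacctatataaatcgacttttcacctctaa
ARG56: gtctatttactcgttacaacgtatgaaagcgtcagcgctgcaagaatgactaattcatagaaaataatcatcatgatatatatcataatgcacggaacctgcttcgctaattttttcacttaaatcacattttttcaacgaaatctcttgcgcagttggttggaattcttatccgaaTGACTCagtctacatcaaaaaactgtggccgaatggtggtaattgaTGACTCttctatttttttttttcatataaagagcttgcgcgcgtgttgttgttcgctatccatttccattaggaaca
ARG2: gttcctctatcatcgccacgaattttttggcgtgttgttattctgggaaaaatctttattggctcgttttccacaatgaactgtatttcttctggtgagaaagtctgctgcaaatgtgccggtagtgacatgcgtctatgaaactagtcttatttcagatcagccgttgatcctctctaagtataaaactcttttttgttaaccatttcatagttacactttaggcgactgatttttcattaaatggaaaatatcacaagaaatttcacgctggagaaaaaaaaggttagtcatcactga
The matches begin 345 and 274 bases before the coding start of ARG1, 314 before that of ARG3, and 223 and 177 before that of ARG56. A match is a description of the letters and not of binding. In all, 9 motifs were searched, none of them a site of the ArgR/Mcm1 repressor, and TGACTC shares no full match with the others. GATAAG, bound by the GATA factors of nitrogen control, was before 3 of the 8 arginine synthesis genes (37.5%), against 13.9% of all. It was also before 4 of the 8 genes higher in can1 (50.0%). Of 6 arginine and proline breakdown genes, GATAAG was before 4 (66.7%) and TGACTC before 2 (33.3%). AGGGG, the stress response element, was before 1 arginine synthesis gene (12.5%), against 23.1% of all. Among the 8 genes higher in can1 it was before 3 (37.5%).

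Genes of arginine and proline breakdown did not pass the test. In 3 of the 5 tested (DUR12, CAR2 and PRO3) all can1 libraries lay below both tor1 libraries, against 14.3% of all genes. In 1 (PUT2) they lay above, against 13.4% of all genes. None of the 5 tested was called in either direction, and their median was -0.15. DUR12 (urea amidolyase, which breaks down the urea that arginase releases) had 1.97, 2.54 and 2.58 RPKM in can1 and 7.04 and 13.2 in tor1. The tor1 mean was 4.29-fold above the can1 mean, but with a difference of -1.68 ± 0.30 the adjusted p was 0.0782. It passed without further scaling (adjusted p = 0.0487), with a filter at 50 reads (0.0359) and with the length trend removed (0.0209). It missed under the other alternatives, with 0.0690 under precision weights and 0.0765 without can1 replicate 1. CAR2 (ornithine transaminase) had 25.4, 39.1 and 40.9 RPKM in can1 and 73.0 and 66.3 in tor1, with a difference of -1.0 ± 0.23 (adjusted p = 0.220).

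CAR1 and CAR2 were highest in wild type, and the share of all genes with that order was not counted. CAR1 (arginase) had 57.8, 91.3 and 85.2 RPKM in can1, 75.7 and 91.7 in tor1, and 107, 134 and 115 in wild type. The can1 and tor1 libraries overlapped, at -0.12 ± 0.19 (adjusted p = 0.832). CAR1 did not pass against wild type in can1 (-0.62 ± 0.17, adjusted p = 0.547) or in tor1 (-0.50 ± 0.19, adjusted p = 0.641). CAR2 in wild type was 86.2, 141 and 130 RPKM, above every library of both deletion strains. Relative to wild type, CAR2 fell in can1 by 1.73 ± 0.21 (adjusted p = 0.00259), while in tor1 the value was -0.74 ± 0.23 (adjusted p = 0.525). For DUR12 the wild-type libraries had 8.93, 17.3 and 8.50 RPKM, in the range of tor1. DUR12 fell in can1 relative to wild type by 1.84 ± 0.27 (adjusted p = 0.0144), and tor1 differed from wild type by -0.16 ± 0.30. PUT2 and PRO3, of proline breakdown and proline synthesis, differed between can1 and tor1 by 0.29 ± 0.12 and -0.15 ± 0.09 (adjusted p = 0.505 and 0.550). PUT1, proline oxidase, had between 3 and 14 reads and was not tested.

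ARO10, a decarboxylase of the pathway that turns aromatic and branched-chain amino acids into fusel alcohols, also rose. It had 20.8, 28.3 and 37.6 RPKM in can1 and 11.4 and 6.90 in tor1, a ratio of 3.17 and a log2 difference of 1.56 ± 0.25 (adjusted p = 0.0286). The wild-type libraries, at 21.4, 27.3 and 20.7 RPKM, lay with can1, so here tor1 was the strain apart. Neither strain passed against wild type (0.28 ± 0.22 for can1, adjusted p = 1; -1.28 ± 0.25 for tor1, adjusted p = 0.175). The call did not hold without can1 replicate 2 (adjusted p = 0.114), can1 replicate 3 (0.0915) or tor1 replicate 2 (0.284). In mRNA ARO10 rose by 1.30 ± 0.27 (adjusted p = 0.000343), a call lost without can1 replicate 2.

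In mRNA 4 of the 8 arginine synthesis genes rose, and the median was 1.1, against 0.01 over all genes. With 2 can1 libraries and 1 tor1 library, 109 of 5280 genes passed (2.06%), 85 higher (1.61%) and 24 lower (0.455%). The lone tor1 library is assumed to vary like the others, and the count was 19 without can1 replicate 1 and 9 without replicate 2. The mRNA p-values rest on a spread pooled over genes, to which the lone tor1 library adds nothing. ARG3 had 47.7 and 56.5 RPKM of mRNA in can1 and 3.10 in tor1, a difference of 3.69 ± 0.27 that passed. ARG1, ARG56 and ARG8 also rose, by 2.97 ± 0.33, 2.01 ± 0.26 and 1.31 ± 0.28. Of these 4, ARG3 and ARG56 passed with either can1 library alone, and ARG1 and ARG8 with neither. CPA1 had 55.9 and 73.3 RPKM of mRNA in can1 and 34.2 in tor1, a difference of 0.89 ± 0.28 that missed the threshold (adjusted p = 0.0688). In mRNA DUR12 and CAR2 fell in can1 relative to tor1, by 1.29 ± 0.30 and 1.84 ± 0.30 (adjusted p = 0.00180 and 4.96e-07). Without can1 replicate 1 neither passed, and without replicate 2 only CAR2 did.

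**Figure D3:**
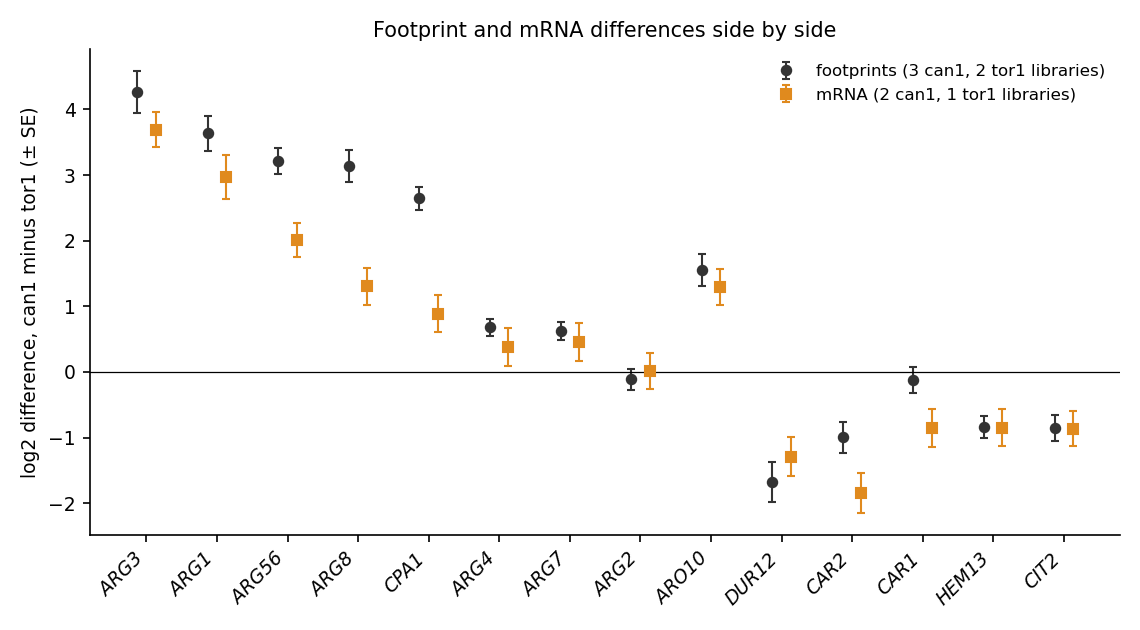
Fitted log2 difference can1 minus tor1 in footprints (circles, 3 against 2 libraries) and in mRNA (squares, 2 against 1 libraries) for named genes; bars are standard errors from each fit. The gap between circle and square is widest for ARG8 and CPA1, at 1.83 and 1.76, and close to 0 for HEM13 and CIT2.

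Footprints relative to mRNA (translational efficiency, the footprint difference less the mRNA difference) passed for no gene: 0 of 4896 in limma, with 358 at an unadjusted p under 0.05 (7.31%). ARG8 had a value of 1.83 ± 0.42 (adjusted p = 0.616). CPA1, the gene with the arginine-responsive leader peptide, had 1.76 ± 0.32 (adjusted p = 0.131). Without can1 footprint replicate 1 it became the 1 gene past the threshold, at 1.92 ± 0.29 (adjusted p = 0.0435). ARG56 had 1.20 ± 0.36 (adjusted p = 0.649), while ARG3 and ARG1 had 0.57 ± 0.56 and 0.66 ± 0.66. The design gave this ratio a single tor1 mRNA library, which limits its precision.

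GCN4 (the activator itself, whose translation is governed by small open reading frames in its leader) did not pass in footprints, mRNA or translational efficiency. It had 87.6, 107 and 79.2 RPKM of footprints in can1 and 74.5 and 49.0 in tor1. The groups did not overlap, with a difference of 0.57 ± 0.25 (adjusted p = 0.512), and replicate 2 of wild type, at 91.3 RPKM, lay among the can1 libraries. Its mRNA was 600 and 521 RPKM in can1 and 793 in tor1, a difference of -0.50 ± 0.36 (adjusted p = 0.698). Its translational efficiency differed by 1.08 ± 0.40 (adjusted p = 0.649). Of the 12 genes listed for GCN4 and its control, 0 passed, and the median was 0.08.

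Other amino acid pathways that Gcn4 also drives showed no call. Among the 10 branched-chain synthesis genes 0 passed, all 10 were above 0 (against 2462 of 4900 over all genes) and the median was 0.27. The highest was BAT2, the cytosolic branched-chain aminotransferase, at 1.05 ± 0.24 (adjusted p = 0.220), and LEU4, an isopropylmalate synthase, was at 0.59 ± 0.14 (adjusted p = 0.220). Both were named after their values were seen. Histidine (6 genes), aromatic (13 genes) and lysine synthesis (7 genes) had medians of 0.07, 0.03 and 0.20 with 0 calls. Sulfur amino acid synthesis had a median of 0.24 over 18 genes with 0 calls. The change past the threshold was therefore in arginine synthesis, and whether it differs from the other pathways was not tested.

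Among 17 tested amino acid permeases CAN1 itself was the only call. Above 0 were 15 of the 17, against 2462 of 4900 over all genes, with a median of 0.37. SAM3, the S-adenosylmethionine permease, had 32.5, 32.5 and 36.4 RPKM in can1 and 22.3 and 17.5 in tor1. The groups did not overlap and the difference was 0.74 ± 0.15 (adjusted p = 0.101), which passed with precision weights (0.79 ± 0.15, adjusted p = 0.0472). Wild type, at 28.3, 36.2 and 33.2 RPKM, lay with can1. MMP1, the S-methylmethionine permease, and BAP3, a branched-chain amino acid permease, had differences of 0.77 ± 0.23 and 0.47 ± 0.15 (adjusted p = 0.454 and 0.478). The median moved to 0.54 without can1 replicate 1.

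TORC1 components and their regulators had no call apart from TOR1. Of 18 tested genes of TORC1, TORC2 and their effectors, TOR1 was the only call, and the median was 0.00. The next by p were the merged pair PPH21/PPH22, catalytic subunits of a phosphatase downstream of TORC1, at -0.24 ± 0.11, and URE2, the nitrogen repressor, at -0.20 ± 0.12. BIT61, a TORC2 subunit, was at -0.22 ± 0.16. The 16 upstream regulators had 0 calls and a median of -0.09, with MEH1 of the EGO complex at -0.41 ± 0.18 (adjusted p = 0.512) and LST7 at -0.48 ± 0.27 (adjusted p = 0.54).

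Targets of nitrogen control were likewise without a call. Of 20 genes under nitrogen catabolite repression, 11 reached the level needed for a test, 0 passed and the median was -0.10. MEP2, an ammonium permease, had 0.480, 1.09 and 1.06 RPKM in can1 and 3.02 and 3.66 in tor1, from 5 to 7 reads in can1 and 14 and 30 in tor1. The groups were apart, at -1.22 ± 0.25 (adjusted p = 0.105), and the fit with precision weights, which adds no 1 to the RPKM, put it at -2.13 ± 0.42 and called it (adjusted p = 0.0478). GDH2, the NAD-dependent glutamate dehydrogenase, differed the other way by 0.57 ± 0.15 (adjusted p = 0.332). In the retrograde pathway, which senses mitochondrial state and glutamate supply under TORC1, 0 of 10 passed and the median was -0.16. CIT2, its peroxisomal citrate synthase, had 22.1, 27.3 and 36.1 RPKM in can1 and 53.4 and 49.4 in tor1. The groups did not overlap, with a difference of -0.86 ± 0.20 (adjusted p = 0.242), and wild type at 23.8, 35.4 and 29.2 RPKM lay with can1.

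Among genes close to the threshold, HEM13 had its highest levels in tor1. HEM13, coproporphyrinogen oxidase of heme synthesis, had 143, 149 and 120 RPKM in can1 and 305 and 198 in tor1. Wild type had 104, 113 and 107 RPKM, so both tor1 libraries were the highest. Its difference was -0.84 ± 0.17 (adjusted p = 0.101); it passed without tor1 replicate 2 (-1.15 ± 0.16, adjusted p = 0.0107) and with precision weights (adjusted p = 0.0362). Against wild type HEM13 rose in tor1 by 1.18 ± 0.17 (adjusted p = 0.0474). Of the 8 heme synthesis genes 0 passed between can1 and tor1, the median was 0.02, and HEM4 was at 0.41 ± 0.16 in the other direction (adjusted p = 0.500).

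ATG41, an autophagy gene, had 15.1, 46.2 and 39.1 RPKM in can1 and 4.85 and 7.15 in tor1, on 5 and 13 reads in tor1. The groups did not overlap, and the can1 libraries spread widely because replicate 1 was low. The difference was 2.18 ± 0.40 (adjusted p = 0.101), and 2.66 ± 0.24 without can1 replicate 1 (adjusted p = 0.000219). Wild type had 16, 24.6 and 25.9 RPKM, above both tor1 libraries and within the range of can1. Neither strain passed against wild type (0.46 ± 0.36 for can1 and -1.72 ± 0.40 for tor1). In mRNA it rose by 1.06 ± 0.26 (adjusted p = 0.00465), a call lost with either can1 library left out. SER3, an enzyme of serine synthesis whose promoter region is read through by the overlapping transcript SRG1, had 18.7, 16 and 18.1 RPKM in can1 and 33.7 and 26.5 in tor1, with a footprint difference of -0.74 ± 0.18 (adjusted p = 0.254). Its mRNA fell by 1.0 ± 0.26 (adjusted p = 0.00918), a call also lost with either can1 library left out. The remaining genes with small p and no call were PGA1 (-0.66 ± 0.13), TOM6 (-0.82 ± 0.16), MET31 (-0.71 ± 0.16) and CLB1 (-0.62 ± 0.15), all with can1 below tor1.

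Stress and storage carbohydrate genes had calls in mRNA and none in footprints, and the gap between the assays passed for no gene. Of 28 tested Msn2/Msn4 targets, the general stress genes that TORC1 holds back, 0 passed in footprints, 22 were above 0 and the median was 0.22, with 0.12 without can1 replicate 3 and 0.14 without tor1 replicate 2. In mRNA 7 of 34 rose (GLK1, HSP42, HSP12, HXK1, PNC1, GSY2 and PGM2), against 1.61% of all genes. The count was 3 without can1 replicate 1 and 0 without replicate 2. Of 17 trehalose and glycogen genes 0 passed in footprints, all 17 were above 0 and the median was 0.21 (0.32 without can1 replicate 1 and 0.34 without tor1 replicate 1). In mRNA 4 rose (GLC3, GSY1, GSY2 and PGM2), a count that fell with either can1 library left out. TPS1, TPS2, TSL1, NTH1, PGM2 and GSY2 are in both lists, so the counts of these lists are not separate results. GSY2, a glycogen synthase, had 6.67, 4.10 and 9.85 RPKM of footprints in can1 and 2.99 and 2.54 in tor1. The groups did not overlap, at 1.00 ± 0.26 (adjusted p = 0.327). Its mRNA was 9.06 and 18.7 RPKM in can1 and 4.68 in tor1, and rose by 1.31 ± 0.29 (adjusted p = 0.000781), a call lost without can1 replicate 2.

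Other stress genes had wide spread within can1. RTC3, a stress-induced gene, had 5.70, 38.8 and 50.3 RPKM of footprints in can1 and 7.68 and 2.17 in tor1. Replicate 1 of can1 lay within the tor1 range, and the difference was 2.19 ± 0.95 (adjusted p = 0.512), or 3.11 ± 0.71 without that library (adjusted p = 0.0909). Its mRNA had 20 and 25.7 RPKM in can1 and 3.38 in tor1, a rise of 2.44 ± 0.29 (adjusted p = 1.05e-11) that was lost with either can1 library left out. MPC3, a mitochondrial pyruvate carrier subunit, had 2, 8 and 7 footprint reads in can1 and 1 and 1 in tor1. Its mRNA had 3.88 and 9.10 RPKM in can1 and 0 reads in tor1, where 3 reads would be 1.00 RPKM. Of 18 tested Hsf1 chaperone genes 0 passed in footprints, with a median of 0.08. BTN2, a protein-sorting factor induced by heat, was at 1.07 ± 0.37 (adjusted p = 0.484) and HSP60, a mitochondrial chaperonin, at 0.24 ± 0.10 (adjusted p = 0.500). ALD4, a mitochondrial aldehyde dehydrogenase among the Msn2/Msn4 targets, was at 0.55 ± 0.19 (adjusted p = 0.484).

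**Figure D4:**
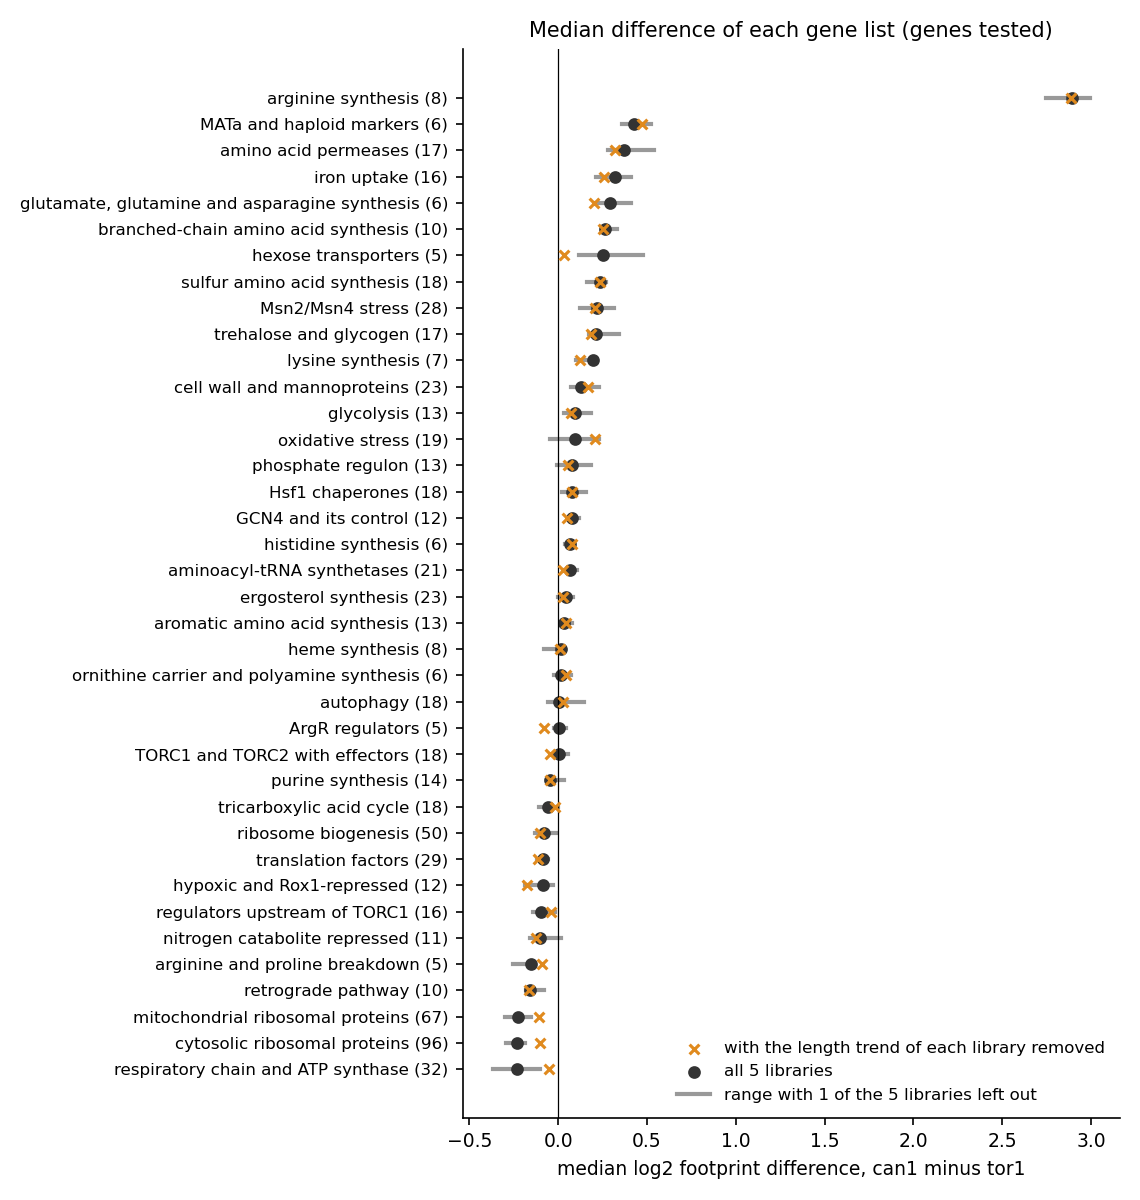
Median log2 footprint difference can1 minus tor1 of each gene list with at least 5 genes tested (number in brackets); dots use all 5 libraries, grey lines span the medians with 1 library left out, and crosses have the length trend of each library removed. Arginine synthesis stands at 2.89, while the other lists lie between -0.23 and 0.43.

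In footprints, ribosomal protein genes sat slightly below 0 without a call. Of 96 cytosolic ribosomal protein features 0 passed, 92 were below 0, and the median was -0.23. In 60 of them all can1 libraries lay below both tor1 libraries, against 14.3% of all genes tested. Mitochondrial ribosomal proteins (67 genes) and the respiratory chain with ATP synthase (32 genes) both had a median of -0.23, also with 0 calls. Without can1 replicate 1 the 3 medians were -0.29, -0.30 and -0.26. The respiratory median was -0.10 without tor1 replicate 1 and -0.37 without tor1 replicate 2. These lists hold short genes, with median listed lengths of 498.5, 614 and 354.5 bases against 1193 over all genes. With a length trend removed from each library the medians were -0.10, -0.11 and -0.05. Genes of ribosome biogenesis, which are longer (median 1468 bases), had a median of -0.08 over 50 genes with 0 calls. In mRNA the cytosolic ribosomal, mitochondrial ribosomal and respiratory medians were -0.57, -0.04 and -0.14, against 0.01 over all genes. The cytosolic mRNA median was -0.79 without can1 replicate 1 and -0.31 without can1 replicate 2.

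Length moved with the comparison in all genes. Genes under 500 bases of listed length had a median difference of -0.21 (693 genes), and those of 2000 bases or more 0.09 (1104 genes). Between these ends lay -0.06 from 500 to below 1000 bases and 0.03 from 1000 to below 2000 bases. The trend was not equal in the can1 libraries. Long genes stood above short ones by -0.03, 0.30 and 0.40 in can1 replicates 1, 2 and 3, and by -0.12 and -0.05 in the tor1 replicates, each relative to the mean of all footprint strains. Replicate 1 of can1 therefore lay with tor1 in this measure too, and wild-type replicates spanned -0.18 to 0.30. The part of footprint length bias in the small list medians was not tested beyond the trend removal given. The arginine synthesis median was 2.89 before and 2.88 after the trend was removed.

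**Figure D5:**
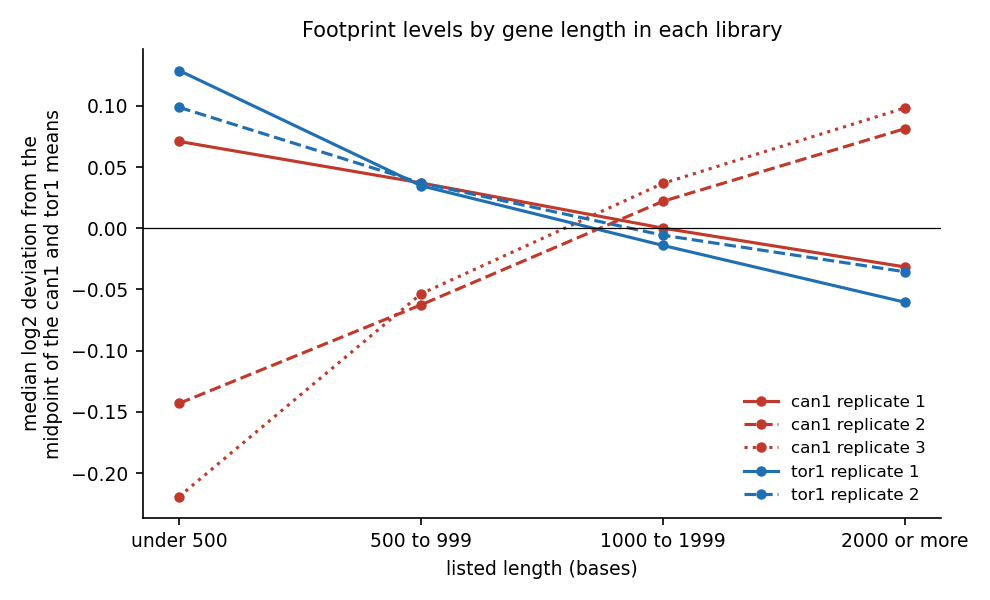
Median log2 deviation of footprint levels from the midpoint of the can1 and tor1 means, by listed gene length, for each of the 5 libraries. Replicates 2 and 3 of can1 climb from short to long genes while can1 replicate 1 and both tor1 replicates descend.

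Markers of cell type matched the strain label. The MATa receptor gene STE2 had 273, 249 and 275 RPKM in can1 and 253 and 224 in tor1, whereas 4 MATalpha genes had 2 to 9 reads in all per library. Of the 8 MATa and haploid genes, MFA1 and MFA2 were listed at 0 in all 5 libraries. The summed level of the list was 631 to 704 RPKM in can1 and 521 and 532 RPKM in tor1, with 0 of 6 tested genes passing and a median of 0.43. The 10 meiosis and sporulation genes summed to 6.26 to 9.20 RPKM in can1 and 6.43 and 8.17 RPKM in tor1. In bulk libraries a lower share of some cells and a lower level in each cell cannot be told apart.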

How the data were processed

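Per the submitters' processing notes, the authors used Bowtie 1.1.2 and genome build R64; the handling of reads that match several places is not stated there. The files as deposited give RPKM, per the file headers, beside a name and a length for 5574 features, of which 116 are merged groups of near-identical genes. The length was 100 bases under the coding length in 5408 of 5456 single genes. Library totals and reads were recovered from the even steps of low RPKM values (tolerance 0.05, up to 50 reads); wild-type footprint replicate 1 and wild-type mRNA replicate 2, which enter the fits, matched only the mean of 2 runs and are approximate. All can1 and tor1 libraries had a single step.

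RPKM is not a count, so the test was limma 3.58.1 (statmod 1.5.0, R 4.3.3) on log2(RPKM + 1) after scaling by trimmed means of M values within each assay, with trended and robust moderation. All 10 footprint libraries entered 1 fit, so the wild-type and rpl22a libraries add to the estimate of the spread and not to the difference. A gene was tested if 2 footprint libraries (1 for mRNA) reached what 10 reads are worth at median depth and its reads came to 15 in all. The mRNA fit pools its spread over genes, so for most genes its p-values do not measure the spread of that gene alone. The efficiency fit treats footprints and mRNA of the same lysates as independent. Intervals after ± are standard errors unless SD is written. The fits were tested on simulated data.

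The text names the deleted genes with their relatives, neighbours and strain markers, and GCN4. Also named are 10 genes at most in each direction (by fold where called and otherwise by p), all genes of arginine synthesis and breakdown, and the smallest p in selected lists. The values of 1 gene are left out of the text, the lists and the labels of plots, though it stays in the fits and in counts over all genes. Genes and lists were chosen with earlier results of these data known. The replicate numbers of can1 and tor1 were not taken as pairs. Alternatives were other pseudocounts, scalings, filters and fits, a replicate block, removal of a length trend per library, and leaving out each library.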

Additional observations from a re-analysis of the deposited data

How the results depend on the processing

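Under 18 alternatives the 5 arginine genes with the largest differences (ARG3, ARG1, ARG56, ARG8 and CPA1) kept their calls in footprints, as did CAN1 and TOR1. None of these reversed in direction. CAR1, which was not called, moved from -0.12 to 0.08 without can1 replicate 1. DUR12, ARG4, SAM3, MEP2 and HEM13 passed only in the alternatives named with each above and missed the threshold in the rest. The number of genes higher in can1 ran from 6 to 11. ARO10 lost its call in the 5 libraries alone with a replicate block (adjusted p = 0.342), with no filter (0.0505), in the 5 libraries alone (0.144) and with plain moderation (0.0530). Genes lower in can1 numbered 2 with no further scaling, 2 with a filter at 50 reads, 2 with the length trend removed and 3 with precision weights, against 1; with 1 library left out they numbered 1 to 3. In mRNA, genes higher in can1 numbered 29 with no filter and 7 to 17 with 1 can1 library left out, against 85. Genes lower numbered 5 with no further scaling, 5 with no filter and 2 with either can1 library left out, against 24. Efficiency gave 0 to 1 calls with 1 library left out. The cause of these moves was not tested.

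The deviations of same-numbered can1 and tor1 libraries correlated at 0.04 and 0.06, so these numbers were not taken as pairs. With 2 tor1 libraries the deviations mirror each other, which limits this check. Long genes stood above short ones by -0.18, 0.12 and 0.30 in the wild-type replicates, in order of number. In those of can1 the values were -0.03, 0.30 and 0.40. Whether replicate numbers pair wild type with can1 was not tested. With a replicate block 7 genes were called in the 5 libraries alone and 9 in all footprint libraries, where ATG41 was gained (adjusted p = 0.0106) and ARO10 lost (0.125). With the block and the length trend removed, 7 were called.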
